A study of Mus musculus with 8 samples.

Results

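Mouse embryonic stem cells that lack both MLL3 and MLL4 (DKO) were compared before and after their exit from the naive state, by the acetylation of histone H3 at lysine 27 (H3K27ac). The regions described are those with a value above 0 in both the naive and the formative DKO column of the deposited table, 108382 of 112137 regions in all. Of the others, 1749 were listed at 0 in naive DKO only, 1655 in formative DKO only and 351 in both. The smallest member values were 0.0052 in naive and 0.0319 in formative DKO on the log2 scale, just above the 0 that kept a region out, and 177 and 160 members lay below a log2 value of 1.

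H3K27ac was profiled by CUT&Tag, in which an antibody-bound mark guides a transposase that tags the nearby DNA for sequencing. The 8 libraries form 4 groups of 2: naive WT, naive DKO, formative WT and formative DKO. Formative cells had been without LIF2i for 63 hours, per the labels. The WT cells are the R1 line, and the labels name neither a line nor a clone for the DKO cells, nor the parts of the genes that were deleted. The series design text says that replicates were cultured and processed separately, but the table holds 1 pooled value per group. A DKO difference therefore has no SD, no test and no replicate check, and "higher" or "lower" below means a log2 difference, formative minus naive DKO, of at least 1 in size (2-fold). The depth of the libraries is unknown, since no column gives read totals.

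Naive cells correspond to the pluripotent cells of the early blastocyst and are held there by LIF, which acts through STAT3, together with 2i, a pair of inhibitors of the kinases MEK and GSK3. When these are withdrawn, ERK signalling is released, the naive transcription factors are shut down and formative factors such as Otx2 and Pou3f1 are activated. Kmt2c and Kmt2d encode MLL3 and MLL4, enzymes that methylate H3K4 and are best known for the H3K4me1 of enhancers. H3K27ac, placed largely by p300 and CBP, marks active promoters and enhancers.

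The windows below, 120 bases each, come from regions that differed at least 2-fold in DKO, and they are shown for the transcription factor motifs they hold. They were chosen after the motif shares below were seen, for holding a match, and are examples only. They were read from GRCm38, the mm10 build of the files, on the plus strand, 5′ to 3′, and lie outside GENCODE M21 exons. Capitals mark every match, on either strand, to any of 14 motifs. The first 3 windows are from regions lower in formative DKO, nearest naive pluripotency genes or, for Ffar3, among the regions of highest signal.
Jam2 intron, ESRRB motif: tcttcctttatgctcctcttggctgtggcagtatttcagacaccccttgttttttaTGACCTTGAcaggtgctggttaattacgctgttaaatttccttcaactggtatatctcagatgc
Klf2 intergenic, OCT motif: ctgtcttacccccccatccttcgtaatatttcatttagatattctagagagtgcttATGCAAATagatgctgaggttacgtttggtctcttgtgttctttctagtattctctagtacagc
Ffar3 intergenic, AP-1 and ESRRB motifs: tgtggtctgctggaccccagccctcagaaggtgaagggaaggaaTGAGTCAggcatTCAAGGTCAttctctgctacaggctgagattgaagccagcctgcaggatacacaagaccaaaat
The next 4 windows are from regions higher in formative DKO, nearest genes of the formative or ERK lists or, for Tmcc3, among the regions of highest signal.
Spred2 intergenic, AP-1 motif: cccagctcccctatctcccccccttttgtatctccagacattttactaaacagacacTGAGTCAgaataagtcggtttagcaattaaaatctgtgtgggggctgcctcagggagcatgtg
Fgfr1 intron, AP-1 motif: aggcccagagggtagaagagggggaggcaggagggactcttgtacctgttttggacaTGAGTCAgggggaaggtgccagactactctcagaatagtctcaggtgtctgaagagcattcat
Tmcc3 intron, AP-1 motif: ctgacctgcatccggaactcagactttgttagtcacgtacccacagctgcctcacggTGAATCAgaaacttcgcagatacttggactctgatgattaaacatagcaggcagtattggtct
Grhl2 intergenic, TEAD motif: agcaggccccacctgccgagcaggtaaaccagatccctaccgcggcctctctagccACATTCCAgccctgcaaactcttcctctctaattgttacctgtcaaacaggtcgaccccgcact

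The Jam2 window is chr16:84776331-84776450, in a region at 9.48 in naive and 8.22 in formative DKO. The Klf2 window is chr8:72324196-72324315, in a region at 6.27 and 5.17 on the same scale, log2(value + 1) of the pooled signal. The Ffar3 window is chr7:30848117-30848236, in a region at 7.52 and 3.54. In the pooled WT columns all 3 regions were also at least 2-fold lower in the formative state. Among the higher regions, the Spred2 window is chr11:19835472-19835591, at -88.9 kb from the transcription start site (TSS), in a region at 7.75 in naive and 10.32 in formative DKO, whereas its WT difference was -1.71. The Fgfr1 window, chr8:25527620-25527739, lies in a region at 5.04 and 6.84. The Tmcc3 window is chr10:94545741-94545860, in a region at 4.91 and 8.91. The Grhl2 window is chr15:37198143-37198262, in a region at 6.86 and 9.28, and that region was listed at 0 in naive WT.

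The knocked out genes were examined next. Kmt2d had 5 regions, with DKO differences from -0.31 to 0.44, the latter at its promoter on chromosome 15, 98871415 to 98872665, at 9.32 in naive and 9.76 in formative DKO. Kmt2c had 3 regions on chromosome 5, labelled intronic in the file, at 0.67, -5.75 and 0.01. The value of -5.75 was at 25478535 to 25479038, where the formative DKO value was only 1.81. RNA levels were 4.14 and 4.31 for Kmt2d and 4.46 and 4.30 for Kmt2c in naive and formative DKO. These values do not check the knockout, because the deleted parts are not given.

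RNA levels, here and below, are the authors' pooled log2-scale values of the nearest gene in DKO cells, from libraries outside this series. What they count is not stated, nor whether they are per length, so genes are not ranked by them. A sum over markers, used below only to set naive beside formative DKO, weighs most the genes with the largest values. RNA levels were present for 9781 genes, with a lowest value of -2.29. Of these genes 18.0% were at least 2-fold higher in formative DKO and 5.15% lower. Markers of the labelled states were examined first. Summed over 10 naive markers, the RNA level was 11.19 in naive and 9.14 in formative DKO, and 8 of the 10 were at least 2-fold lower. Over the 5 formative markers with RNA it was 5.36 and 9.41, with 5 of 5 higher.

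Of the markers that define other cell types, some had an RNA value. The 1 primitive endoderm marker of 5 with RNA, Gata6, was at -0.54 and 0.26, and the 1 trophoblast marker of 4, Krt7, at 1.69 and 1.00. The 2 fibroblast feeder markers of 5 with RNA summed to 0.73 in naive and 3.08 in formative DKO, with Col1a2 at -0.20 and 3.00 and Thy1 at -0.35 and -1.03. In the longer list of feeder genes 3 of 4 with RNA were higher, Col1a2, Vim at 6.46 and 7.95 and Pdgfrb at -1.73 and -0.52. The 2 neural markers of 3 with RNA summed to 4.93 and 6.11, and the 2 mesendoderm markers of 3 to 1.70 and 0.80. In the longer lists, RNA was higher in 1 and lower in 1 of 8 primitive endoderm genes and in 1 and 2 of 7 trophoblast genes. It was higher in 1 and lower in 4 of 8 primed and mesendoderm genes and in 2 and 0 of 5 neural and ectoderm genes. Over all 9781 genes 18.0% were higher and 5.15% lower. Lamb1, a laminin chain, was at 3.87 and 6.01, Tfap2c, an AP-2 factor, at 7.17 and 4.09 and Hand1, a bHLH factor, at -1.41 and 0.36. None of these markers was listed at the lowest RNA value, and their part in the results was not tested. In bulk samples, fewer cells of a type and less RNA per cell cannot be told apart.

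Of the 108382 regions, 18536 were higher in formative DKO (17.1%) and 19579 lower (18.1%), with a median difference of -0.06. At 4-fold there were 6291 and 6125. The balance depended on signal, taken as the mean of both linear values with the division by width undone. In the lowest quintile of signal 29.4% were higher and 27.5% lower, and in the highest 4.46% and 15.7%, with a median of -0.26. In that highest quintile 3395 regions were lower and 966 higher.

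**Figure D1:**
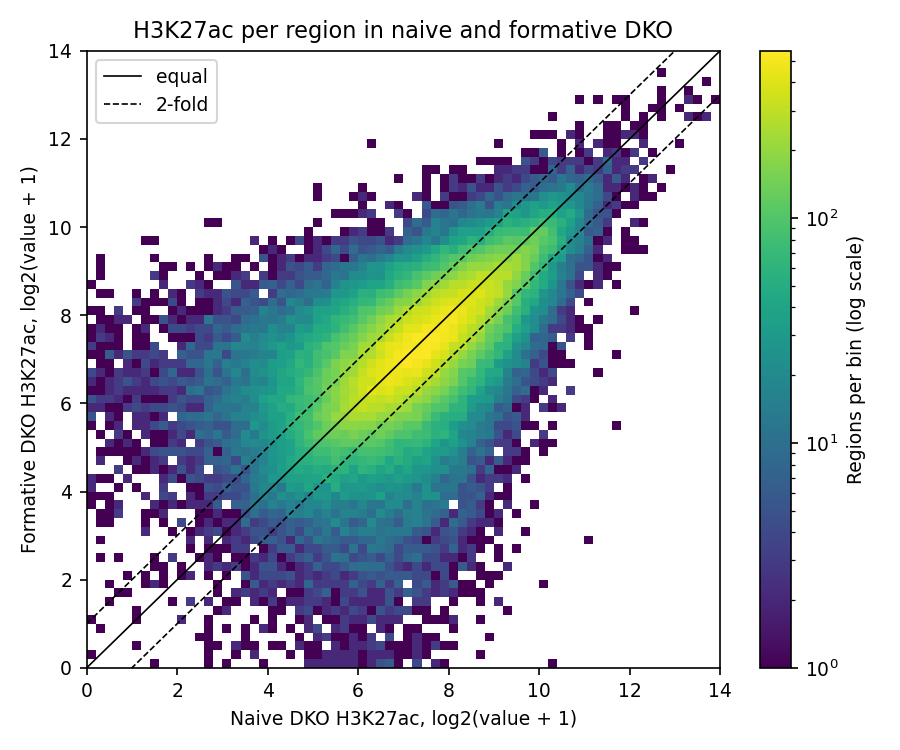
Pooled H3K27ac per region, log2(value + 1), in naive DKO (x axis) and formative DKO (y axis), with color for the number of regions per bin on a log scale. The solid line marks equal values and the dashed lines 2-fold; 18536 regions lie at or above the upper dashed line and 19579 at or below the lower, and 42 regions reaching 14 are not shown.

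Promoters differed least often. Of 5495 promoter regions 9.15% were higher and 9.86% lower, against 17.6% and 16.6% of introns and 18.5% and 24.5% of intergenic regions. The contrast held in the top quintile of signal, where 31.0% of 3724 intergenic regions were lower and 6.02% higher, with a median of -0.51. In the same quintile 7.26% of 3347 promoters were lower and 2.39% higher, with a median of -0.25. Autosome medians ran from -0.13 to 0.03. The X chromosome had a median of -0.26, with 21.4% of 1615 regions lower and 11.8% higher. In the pooled WT columns the X chromosome was also low, with a median difference of -0.53 against 0.53 over all regions.

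**Figure D2:**
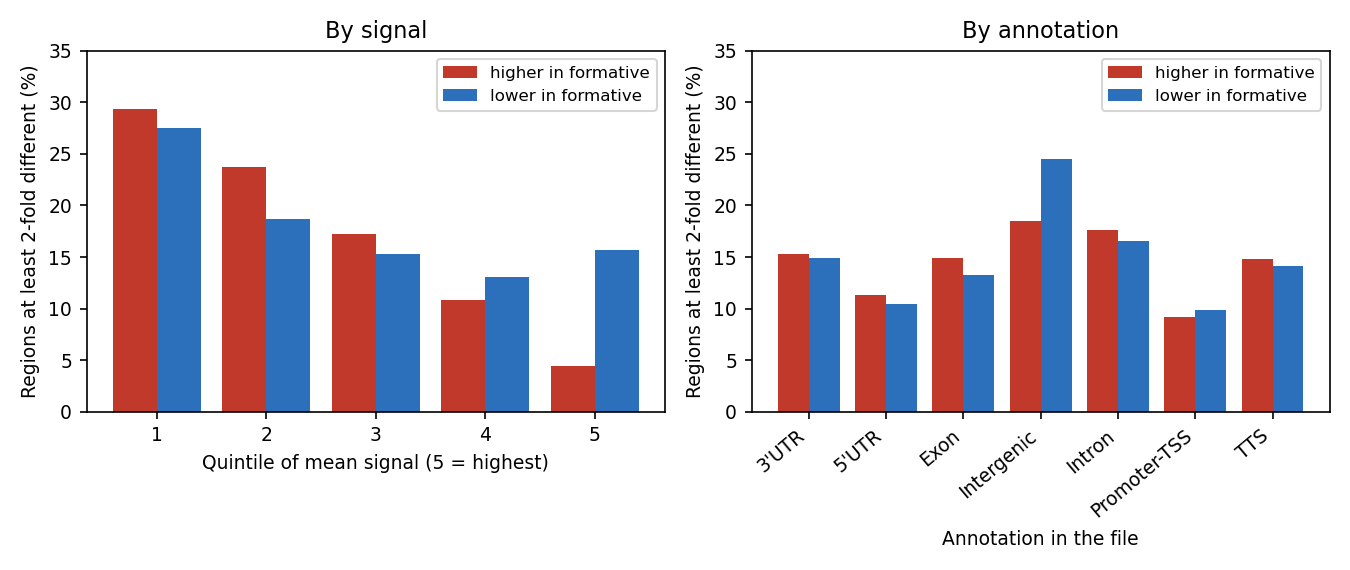
Percent of regions at least 2-fold higher (red) or lower (blue) in formative than in naive DKO, by quintile of mean signal (left) and by the annotation in the file (right). At the deposited scaling, the higher share falls from 29.4% to 4.46% from the lowest to the highest quintile. Intergenic regions have the largest lower share of the annotations, 24.5%.

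The scaling between the pooled columns is not stated, and it moves the balance. Higher regions were 48.6% of all that differed as deposited and 64.2% after setting the sums over all regions equal, the highest share over 5 other scalings. At the deposited scaling they were 39.0% among regions above the median signal. The quintile shares and medians were also counted at the deposited scaling only. With equal sums the median over all regions was 0.22, against -0.06 as deposited. That shift is about the size of the top-quintile median of -0.26. Whether the lean to lower values in that quintile holds at other scalings was not tested.

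The DKO regions were set beside the authors' replicated WT test. In the authors' deposited table, 20.1% of the same regions rose and 16.2% fell in WT at a DiffBind adjusted p under 0.05. Among regions higher in DKO, 31.8% rose and 4.1% fell in WT in the authors' deposited table. Among regions lower in DKO, 28.6% fell and 14.9% rose in that table. In the top quintile of signal, 74.3% of the regions lower in DKO also fell in WT and 1.47% rose, against 37.1% and 12.9% of all regions of that quintile, in the authors' deposited table.

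From the WT side, 27.1% of the 21777 regions that rose in WT by DiffBind were higher in DKO and 13.4% lower, with a DKO median of 0.31. Of the 17519 that fell, 32.0% were lower in DKO and 4.34% higher, with a median of -0.60. Of the 69086 without a WT call, 17.2% were higher and 16.0% lower.

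**Figure D3:**
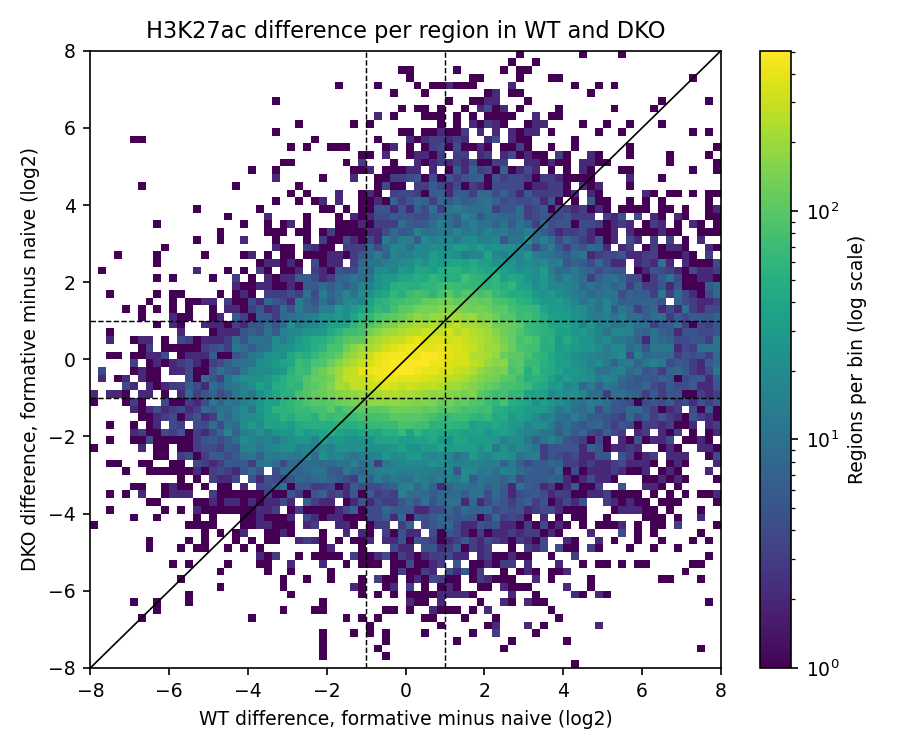
H3K27ac difference per region, formative minus naive, log2, in WT (x axis) and DKO (y axis), with color for regions per bin on a log scale and dashed lines at 2-fold. Values are pooled and the solid line marks equal differences. The 2710 regions beyond 8 in size are not shown, and regions that fell in WT by DiffBind had a DKO median of -0.60.

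The H3K4me1 difference in DKO, from the authors' deposited table and from libraries outside this series, had medians near 0 in every class. Its median was 0.09 for higher, 0.05 for regions under 2-fold and -0.07 for lower H3K27ac regions. In the top quintile these medians were 0.21, 0.07 and -0.13, and 1.35% and 1.62% of the higher and lower regions had an H3K4me1 difference of at least 2-fold in the same direction, in the authors' deposited table. Over all regions of that quintile these shares were 0.323% higher and 0.411% lower, in the authors' deposited table.

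Sequence motifs were counted in 300-base windows at the centers of 46493 regions outside promoters, over 1 kb from a TSS and above the median signal. The motifs, on both strands, were GGGNGTGG for KLF, TCAAGGTCA for ESRRB, ATTTGCAT for OCT and CCATTGTT for SOX factors. Others were AACCNGTT for grainyhead, TTCCNGGAA for STAT, ACATTCCA for TEAD and CCGGAAGT for ETS factors. For AP-1 it was TGA, then any base, then TCA. The last were TAATCC for OTX, CCTGCTG for ZIC, ATCAAAG for TCF/LEF, TGTTTAC for FOX and CCACNAGG for the CTCF core. No match of any of these lies wholly inside a match of another. A match is a description of the letters, not a binding site.

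The AP-1 motif stood in 13.7% of windows of higher regions, 9.28% of those under 2-fold and 9.16% of those that were lower. In the top quintile of signal these shares were 18.6%, 9.77% and 9.84%, against 10.2% of all 16147 windows there. TEAD motifs stood in 3.6% of higher, 2.25% of lower and 1.93% of all windows of that quintile, but above the median signal the higher and lower shares were 2.07% and 2.05%, against 1.7% of all. ESRRB motifs stood in 2.05% of lower, 0.959% of higher and 1.2% of all windows of the top quintile, and OCT motifs in 2.52%, 1.08% and 1.78%. Above the median signal ESRRB motifs stood in 1.78% of lower, 0.726% of higher and 1.07% of all windows, and OCT motifs in 2.32%, 1.34% and 1.58%. KLF motifs stood in 15.0% of lower, 14.4% of higher and 12.9% of all windows of the top quintile. Above the median signal these KLF shares were 13.6%, 11.5% and 11.4%. In the top quintile OTX motifs stood in 10.9% of higher, 12.4% of lower and 12.7% of all windows, and ZIC motifs in 13.2%, 11.4% and 11.7%. FOX motifs stood there in 4.44%, 4.03% and 4.08% and SOX motifs in 0.959%, 1.34% and 1.15%. Median window GC was 49.7% in higher, 48.3% in regions under 2-fold and 47.7% in lower regions of that quintile, and its part in these shares was not tested.

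Genes were given the regions within 100 kb whose nearest TSS was theirs. Of 18423 such genes 9.95% had a region median at least 2-fold higher and 10.8% lower. In RNA, 18.0% of 9781 genes were at least 2-fold higher in formative DKO and 5.15% lower. Named lists above and below are read against these shares.

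Among naive pluripotency genes, 14 of 24 had a lower region median and 0 a higher, 138 of their 257 regions were lower and 17 higher, and the list median was -1.17, against -0.06 for all genes. The pooled WT median of the list was -1.82. In RNA 15 of 20 were lower and 1 higher, with a median of -2.07. Over 5 other scalings of the columns, 10 to 13 genes of the list had a lower median and 0 a higher. Several lists share genes, such as Klf4, Tfcp2l1 and Gbx2 here and among the LIF/STAT3 genes.

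Among the transcription factors of the naive network, Nanog had a lower region in 6 of 8, from -2.68 to 0.70, with an RNA level of 9.12 in naive and 7.23 in formative DKO. Esrrb, an orphan nuclear receptor, was lower at 7 of 12 regions and higher at 2, with RNA at 7.71 and 5.64. Its region of highest mean signal, intronic on chromosome 12, 86481398 to 86515151, was at 5.57 and 3.45. Klf4, a target of LIF signalling, was lower at 5 of 6 regions. The intergenic one on chromosome 4, 55469809 to 55482428, was at 7.83 and 5.03, its promoter at 9.86 and 8.69, and its RNA at 9.38 and 7.22. Tbx3 was lower at 5 of 6, with RNA at 7.24 and 5.15. Tfcp2l1, a further LIF target, was lower at 17 of 32 and higher at 3, with RNA at 9.17 and 6.41. Nr5a2, an activator of Pou5f1, was lower at 7 of 12, with RNA at 6.39 and 4.32. These 6 factors were lower in both measures.

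Among the other genes of the naive list, Tet2, a 5-methylcytosine dioxygenase, was lower at 16 of 18 regions, from -2.73 to -0.04, and its strongest region, intronic on chromosome 3, 133516634 to 133535116, was at 6.28 and 3.85. It has no RNA value. Jam2, a junctional adhesion molecule, was lower at 12 of 13, from -3.15 to -0.82, with RNA at 7.38 and 4.88. Its region on chromosome 16, 84768234 to 84775267, was at 7.87 and 5.65. Pecam1, an adhesion receptor, was lower at 10 of 16, with RNA at 7.86 and 4.72. Zfp42, a marker of naive cells, was lower at 12 of 16, with RNA at 6.87 and 5.73. Spp1, osteopontin, was lower at 4 of 6, with RNA at 8.79 and 6.42.

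The homeobox gene Gbx2 was the 1 naive gene with higher RNA. It was at 2.25 in naive and 5.40 in formative DKO. Its 5 regions had a median of 0.21, with 2 higher and 0 lower. In the authors' deposited table its RNA difference in WT was -2.49, the opposite sign. Nr0b1, a nuclear receptor family gene, was at 2.18 and 3.06, under 2-fold, while its RNA difference in WT was -3.24 in the authors' deposited table. Klf2 had a region median of -0.28, with 3 of 16 regions lower, and RNA at 8.32 and 5.74.

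Core pluripotency genes, used in both states, were mixed. Of 15 genes 2 had a higher and 2 a lower median, and in RNA 5 of 14 were higher and 0 lower. Sox2, a core factor, had RNA at 7.80 and 7.82 while its strongest region, at the promoter on chromosome 3, was at 7.32 and 6.46. The largest region of Pou5f1 on chromosome 17, 35495630 to 35510776, was at 6.66 and 4.90. RNA of Pou5f1 was at 2.49 and 2.64. How reads from near-identical copies of this gene were counted is not stated, and their part in these values was not tested. Utf1, a chromatin-associated factor, was higher at 3 of 5, with RNA at 3.33 and 7.20. The region median of Utf1 was 1.03 in DKO and -0.49 in the pooled WT columns.

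Of 25 formative genes with a region, 8 had a higher and 2 a lower median, 57 of 174 regions were higher and 26 lower, and the list median was 0.57 (pooled WT 1.34). Over the same 5 scalings, 8 to 10 had a higher and 2 a lower median. In RNA 19 of 22 were higher and 0 lower, with a median of 2.54 against 0.18 for all genes. Pou3f1, a POU factor of the formative state, was higher at 6 of 8 regions. The strongest, intergenic on chromosome 4, 124644690 to 124648510, had a naive value of 4.88 and a formative value of 7.59, whereas its promoter, 124656807 to 124657674, was at 8.61 and 6.74. Its RNA was at 3.67 and 8.86.

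Fgf5, a ligand secreted by formative cells, was at 3.94 and 8.70 at its intergenic region on chromosome 5, 98283096 to 98284035, and at 4.52 and 5.60 at its intronic one. Its RNA was at -0.35 and 5.40. The DKO differences were 4.76 and 1.07, and both regions were listed at 0 in naive WT. Car4, a carbonic anhydrase, had 7 of 15 regions higher, from -0.34 to 3.51, and RNA at 0.62 and 6.88. Lef1, a Wnt effector, had 9 of 13 regions higher and 0 lower, from 0.29 to 6.78, the largest from a naive value of 0.41.

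Other formative genes had RNA without a matching region median. Sall2 was at 2.65 and 5.50 with a median of -0.51, and Grhl2 at 1.03 and 4.44 with a median of -0.73, 1 of its 6 regions higher and 3 lower. Sox11 was at 5.59 and 8.16 with a median of -0.15. Foxd3 was at 3.19 and 5.49 with 4 of 10 regions lower. Dnmt3a, a de novo DNA methyltransferase, was at 4.33 and 6.93 with a median of 0.06 over 23 regions. Sox3, a SOX factor, was at 1.05 and 3.94 while its 1 region differed by -3.78. Otx2 and Dnmt3b have no RNA value. Their region medians were 0.86 and 0.57, with 1 of 3 and 4 of 10 regions higher.

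**Figure D4:**
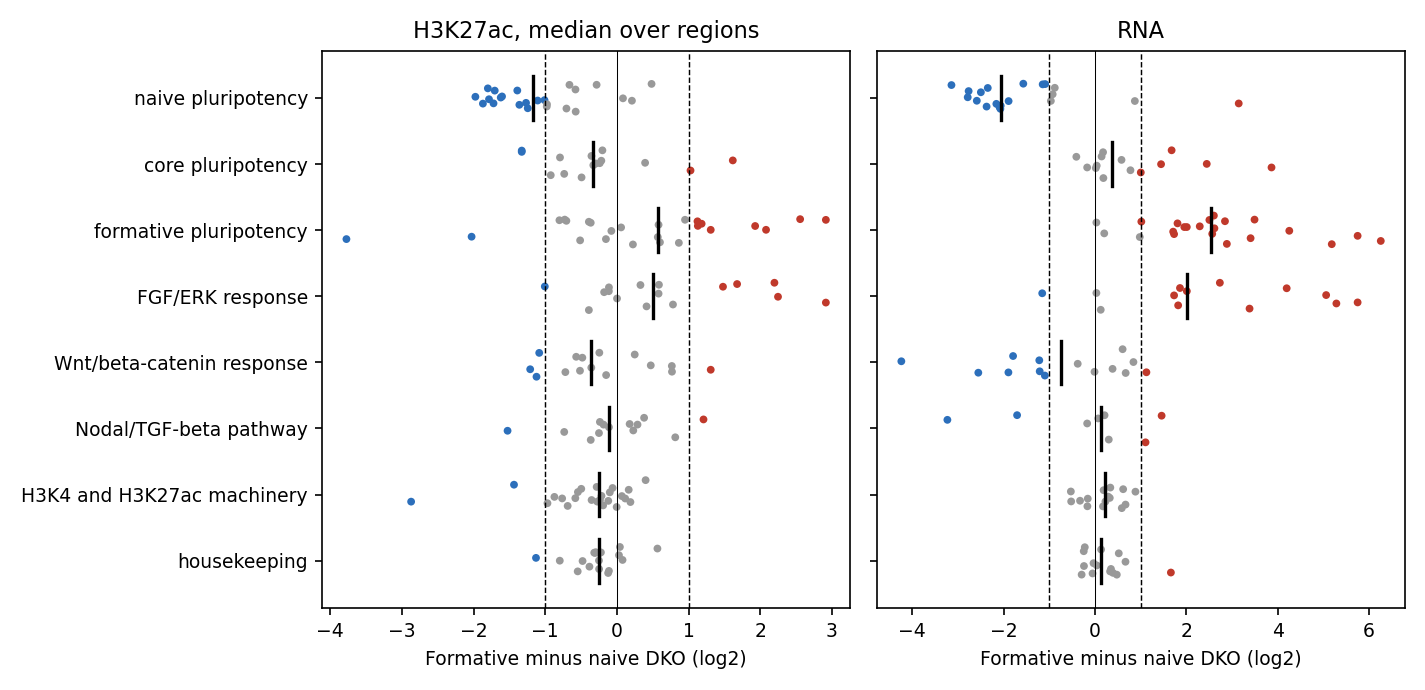
Formative minus naive DKO, log2, for each gene of 8 lists, as the median H3K27ac difference over its regions (left) and the RNA difference (right). Points are genes, red if at least 2-fold higher and blue if lower, black bars are list medians and dashed lines mark 2-fold; most naive genes lie left of 0 in both panels, Gbx2 being an exception in both, and formative genes lie further right in RNA (median 2.54) than in H3K27ac (median 0.57).

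Of 16 FGF/ERK genes with a region, which include Fgf5, Etv4 and Etv5 from the formative list, 5 had a higher and 1 a lower region median, 57 of 171 regions were higher and 15 lower, and in RNA 10 of 13 were higher and 1 lower. Spry4, a Sprouty inhibitor of receptor tyrosine kinase signalling, was higher at 9 of 12 regions, from -0.90 to 5.45. The region at -30.6 kb from its TSS was at 5.22 in naive and 9.20 in formative DKO, its promoter was at 7.14 and 9.69 and its RNA at -1.25 and 4.04. In WT the pooled region median was -0.28 and the RNA difference 1.62, per the authors' deposited table for RNA.

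Dusp5, a nuclear ERK phosphatase, was higher at 7 of 8 regions. The one at the end of the gene on chromosome 19, 53541422 to 53542469, was at 3.32 and 8.71. RNA of Dusp5 was at 1.13 and 3.86, and of Dusp6, the cytoplasmic ERK phosphatase, at 2.89 and 7.95. Egr1, an immediate early ERK target, was at -0.07 and 4.13 in RNA with 0 of 4 regions past 2-fold. Etv4 and Etv5, ETS factors downstream of FGF, differed from each other. Etv4 had 4 of 9 regions higher and RNA at 3.42 and 5.15, and Etv5 1 of 15 higher and RNA at 6.06 and 6.09. Fgf4, the ligand itself, was lower, at 7.52 and 6.37 in RNA with 4 of 7 regions lower.

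Wnt response genes were more often lower than higher in RNA. Of 15 Wnt response genes with a region 1 had a higher and 3 a lower median, and in RNA 1 of 14 was higher and 7 lower. The split of region medians depended on scaling, and with equal sums over all regions 3 genes had a higher and 0 a lower median. The gene higher in RNA was Tcf7, at 3.23 and 4.36, and Lef1, also of this list, had 9 of 13 regions higher. Dkk1, a secreted Wnt inhibitor, was at 3.87 and -0.37 in RNA, whereas the authors' deposited table gave 0.65 as its WT difference. Wnt3, a ligand of gastrulation, was at 4.12 and 2.92, against a WT difference of 4.94 in the authors' deposited table. Axin2, a feedback inhibitor, was at 3.36 and 2.14, with 7 of 15 regions lower. Nodal, a TGF-beta ligand, was lower at 9 of 12 regions, from -5.65 to -0.57. The differences of -5.65 and -5.405 were at regions of low signal, with formative values of only 3.38 and 1.87. The Nodal region on chromosome 10, 61412799 to 61420814, was at 7.96 and 5.93 and Nodal RNA at 6.95 and 5.25. The RNA difference of Nodal in WT was 0.51 in the authors' deposited table. Lefty2, an inhibitor of Nodal, was at 9.18 and 5.95 in RNA, although 3 of its 7 regions were higher and 0 lower. The Nodal/TGF-beta list had 2 higher and 2 lower of 8 genes in RNA, and the higher ones were the activin receptors Acvr1b, at 2.16 and 3.62, and Acvr2b, at 5.04 and 6.15.

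The remaining lists are given by their counts at the deposited scaling. Of 24 genes of the H3K4 and H3K27ac machinery 0 had a higher and 2 a lower median, and in RNA 0 of 15 were past 2-fold. The lower ones were Kmt2c, by the narrow region described above, and Rbbp5, a shared subunit of H3K4 methyltransferases, lower at 6 of 8 regions. Of 18 housekeeping genes 0 were higher and 1 lower. The 11 primed and mesendoderm genes had 1 higher and 1 lower, the 13 of primitive endoderm 2 and 2, the 10 of trophoblast 2 and 1 and the 6 of neural and ectoderm 1 and 0. The 7 feeder genes had 1 and 2, the 8 germline and 2-cell-like genes 0 and 3, and the 9 of DNA methylation and Tet 1 and 1. The 15 LIF/STAT3 genes had 0 and 3, the 13 Nodal/TGF-beta genes 1 and 1, the 11 BMP genes 0 and 2 and the 15 of adhesion and matrix 2 and 3. In RNA, adhesion and matrix genes were higher in 7 and lower in 2 of 14, LIF/STAT3 genes in 2 and 4 of 13, BMP genes in 3 and 0 of 11 and germline and 2-cell-like genes in 3 and 1 of 8. Housekeeping genes were higher in 1 and lower in 0 of 15, and DNA methylation and Tet genes in 1 and 0 of 3. Epcam, an adhesion molecule, was at 4.55 and 7.77. Cdh1, E-cadherin, was lower at 5 of 5 regions, from -1.73 to -1.004, with RNA at 9.33 and 8.76.

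RNA and H3K27ac were then set side by side. The 8327 genes with a region and an RNA level above 1 in either state were sorted by RNA. H3K27ac medians were 0.35 for 446 genes at least 4-fold higher in RNA and 0.16 for 850 genes 2- to 4-fold higher. They were -0.10 for 6599 genes under 2-fold, -0.58 for 324 genes 2- to 4-fold lower and -1.09 for 108 genes at least 4-fold lower. Across these genes, which share their libraries and are not replicates, Pearson's r was 0.27 and Spearman's rho 0.25. Over 3304 genes with a promoter region r was 0.32 and rho 0.26. Over 7752 genes with distal regions r was 0.23 and rho 0.23.

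**Figure D5:**
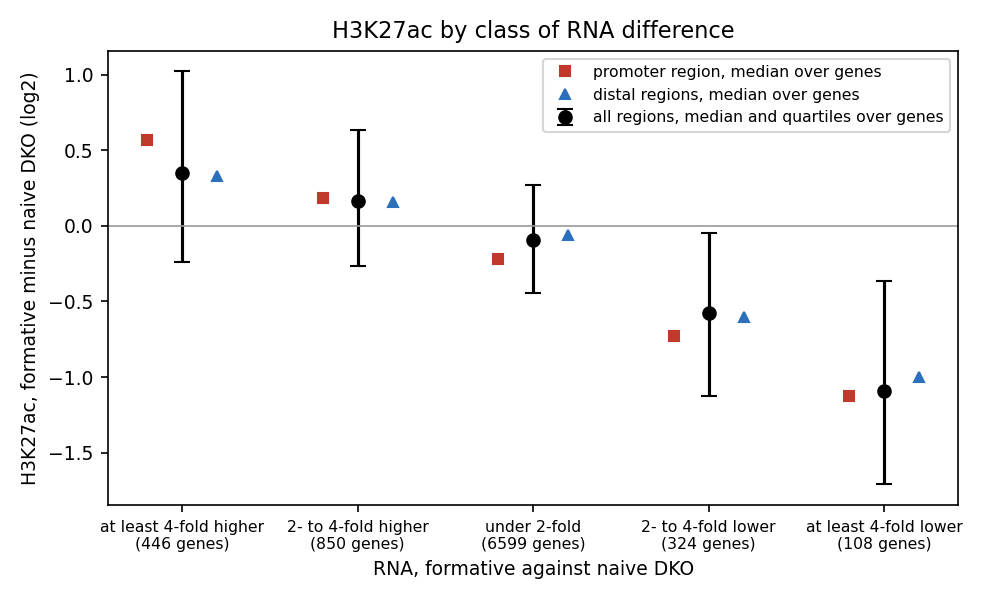
H3K27ac difference, formative minus naive DKO, log2, by class of RNA difference. Black points are medians over genes of the median over their regions, with bars to the quartiles of genes; squares and triangles are the medians for promoter and distal regions. Medians run from 0.35 to -1.09 across the classes.

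These shares were also counted gene by gene. Of the 108 genes at least 4-fold lower in RNA, 54.6% had a region median at least 2-fold lower and 2.78% higher. Of the 446 genes at least 4-fold higher, 25.3% had a higher and 8.07% a lower median. Genes sorted by H3K27ac had a median RNA difference of 0.64 where it was higher, 0.14 in between and -0.16 where it was lower.

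Car4, Fgf5, Spry4 and Pou3f1 were among the 10 genes with the largest positive RNA difference in DKO, with Sema3e, a semaphorin guidance ligand, at 0.92 in naive and 6.43 in formative DKO. Sema3e had 11 of 15 regions higher, from -1.33 to 4.78. Insm1, a zinc finger factor of neuroendocrine cells, was at -1.97 and 3.35, and Vrtn at -0.32 and 4.85 with 6 of 8 regions higher. Enpp3, an ectonucleotidase, was at 0.21 and 5.60 with 0 of 4 regions past 2-fold.

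Among the 10 genes with the largest negative RNA difference, the keratin Krt17 was at 5.23 and 0.14 and Krt42 at 6.09 and 1.14, whereas Krt8 and Krt18 were at 3.84 and 3.63 and at 5.48 and 5.29, and Krt19 was higher, at 2.19 and 3.31. The keratins were picked after their values were seen. Padi4, a peptidylarginine deiminase, was at 4.46 and -0.12. Grhl3, a grainyhead factor of epithelia, was at 4.08 and -0.47, with 6 of 9 regions lower. Its region on chromosome 4, 135599344 to 135600769, was at 8.83 and 4.44. Slc25a48, a mitochondrial carrier, was at 4.24 and -0.19, and its only region, intergenic on chromosome 13, 56418633 to 56420043, was at 11.74 and 7.13, with a WT difference of 0.36 and a DiffBind adjusted p of 0.791 per the authors' deposited table. The pooled WT values of that region were 7.26 in naive and 7.62 in formative cells, nearer to the formative than to the naive DKO value.

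In DKO against WT, 1011 of the 1760 genes higher in DKO were higher in WT too (57.4%) and 64 were lower (3.64%), in the authors' deposited table. Over all 9781 genes 17.1% were higher and 9.65% lower in WT, in the authors' deposited table. Of the 504 lower in DKO, 270 were lower in WT (53.6%) and 24 higher (4.76%), in the authors' deposited table.

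Single regions were named by a rule, at least 1000 bases wide and above the median signal, within 100 kb of a TSS. A region nearest Fcgr3 was at 4.74 in naive and 9.75 in formative DKO. A region nearest Fam3c was at 4.42 and 8.55, with RNA of that gene at 6.595 and 6.518. On the lower side, a region nearest Zfp619 was at 8.33 and 1.77, with RNA at -0.02 and 0.47. A region nearest Rack1 was at 9.27 and 4.40, with RNA at 12.684 and 12.675. The largest negative difference in the top quintile, a set added after the values were seen, was nearest Gramd1b on chromosome 9, 40588316 to 40589172, at 11.62 and 5.40. Saa3, a serum amyloid A gene, had a region at -7.6 kb from its TSS at 8.75 and 4.93 and RNA at 7.90 and 3.96. Pooled WT differences were 4.72 at the Fcgr3 region, 4.63 at Fam3c, -6.22 at Zfp619 and -5.38 at Rack1. At the Gramd1b and Saa3 regions they were -5.40 and -3.66. Regions nearest Pon1 and Gab1, also named by the rule, had WT differences of the opposite sign and are given below.

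Of all 24093 regions flat in the pooled WT columns, within 0.5 of 0, 12.6% were higher and 14.6% lower in DKO, less often than over all regions. Of the 10943 among them that met the rule for named regions, 686 were higher (6.27%) and 964 lower (8.81%), against 8.34% and 13.7% of all 41162 regions that met it. The lowest was nearest Mir101c, at 7.65 and 2.49, followed by the Slc25a48 region above. Next was one nearest Brd1, at 8.41 and 4.57, with its RNA at 6.35 and 6.46. The highest was nearest Wdyhv1, at 4.12 and 7.89. An intronic region of Cald1, an actin-binding protein, was at 5.34 and 9.05, with RNA at 6.76 and 8.70. A region nearest Lhfpl4 was at 4.11 and 7.77. In naive and formative WT the Wdyhv1 region was at 7.255 and 7.246 and the Cald1 region at 8.05 and 7.69. The Lhfpl4 region was at 7.51 and 7.07 in WT, the Mir101c region at 7.80 and 7.78 and the Brd1 region at 7.65 and 7.85.

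Genes with every region past 2-fold in 1 direction were counted after the values were seen. Of 8720 genes with at least 4 regions, all were higher at 11 and all lower at 13. Mras, a RAS-related GTPase, had 7 of 7 lower, from -2.83 to -1.62, with RNA at 8.13 and 4.32. At the intron on chromosome 9, 99427356 to 99429179, it was at 10.60 and 7.77. Slc29a1, a nucleoside transporter, was lower at 5 of 5, with RNA at 7.74 and 6.03. Mir290a, of a microRNA cluster of embryonic stem cells, was lower at 5 of 5. Ccn1, a matricellular protein, was higher at 4 of 4, with RNA at 3.09 and 6.44, and Efna5, an ephrin ligand, at 4 of 4, with RNA at 0.95 and 3.22. By region median over at least 4 regions, Slc22a22 was highest, at 3.08, and Slc12a3 lowest, at -3.80.

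Regions listed at 0 in 1 state had small widths, with medians of 664 bases for those at 0 in naive DKO only and 666 for those in formative DKO only, against 1105 for the members. Those at 0 in both had a median width of 584 bases. In WT 43.7%, 37.1% and 56.4% of the 3 sets rose by DiffBind, against 20.1% of the members, in the authors' deposited table. The shares that fell were 2.4%, 6.53% and 2.28%, against 16.2%, in the authors' deposited table.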

How the data were processed

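H3K27ac CUT&Tag was measured in 8 mouse embryonic stem cell libraries, 2 for each of 4 groups. The submitters' processing notes name Trim Galore, Bowtie2, SEACR, DiffBind and deepTools, without versions, and the mm10 build. The deposited H3K27ac columns hold 1 pooled value per group and region on a log2 scale, log2(value + 1), and their scaling is not stated in the labels or header. The deposited values fell with region width (exponent -2.02 over 108867 regions in naive WT), so levels were not compared between regions, and mean signal was ranked after multiplying by the squared width. The deposited RNA columns are other log2-scale values whose quantity is not stated, from libraries outside this series. Adjusted p-values are those the authors deposited from DiffBind. Another 10 deposited columns of pooled levels were not used.

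Differences were computed as formative minus naive DKO with Python 3.11.15 and pandas 2.3.3. With 1 pooled value per group no test, SD, leave-one-out or interval was possible, and a difference of at least 1 (log2) is a description. Genes took regions within 100 kb of their TSS. Named regions were the 10 most extreme per direction among those at least 1000 bases wide and above the median signal, or the 6 most extreme of those within 0.5 of 0 in WT. Named genes were the 10 most extreme by region median over at least 4 regions and by RNA difference, with an RNA level of at least 1 in either state, a minimum set after the values were seen. The members and the 18 gene lists were chosen with earlier results of these data known. Genes described region by region, the keratins and the regions of the top quintile were picked after their values were seen. Of promoter-labelled regions, 89.9% lay within 1 kb of a GENCODE M21 gene start. Some named items are not reported here. The calculations were tested on simulated data.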

Additional observations from a re-analysis of the deposited data

Results flagged for a closer look

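In the results below, the difference between formative and naive cells had opposite signs in DKO and WT. Each rests on pooled values, and the difference between DKO and WT was not tested. Among single regions, the one nearest Pon1, in an intron of Ppp1r9a, differed by -5.30 in DKO and 2.39 in WT. A region in an intron of Gab1 differed by -4.65 in DKO and 1.46 in WT.

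Among H3K27ac region medians, Tead2 was at -2.03 in DKO and 1.78 in WT and Cish at -2.18 and 1.05. Gata6 was at -1.83 and 1.89. Cish and Gata6 had 3 regions each, 1 higher and 2 lower in DKO. Bmp2, at -1.09 and 1.66, and Pdgfra, at -1.06 and 1.37, had 1 region each, so these are values of a single region.

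Among RNA differences, with the WT value from the authors' deposited table, Gbx2 was at 3.15 in DKO and -2.49 in WT. Vim was at 1.49 and -1.41, Pdgfrb at 1.21 and -2.56 and Dazl at 1.05 and -1.12, in the authors' deposited table for WT. Wnt3 was at -1.21 and 4.94, Lgr5 at -1.79 and 1.06 and Mixl1 at -1.38 and 1.03, again with WT from the authors' deposited table. RNA levels in naive and formative DKO were -1.73 and -0.52 for Pdgfrb and 0.58 and -1.21 for Lgr5. Both genes were thus below the minimum of 1 used for named genes.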

How the results depend on the processing

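No paired analysis was possible because the columns pool the libraries of each group, so replicate numbers are not carried and leaving out a library could not be run. Another pseudocount for RNA was not run either, since those values were deposited on a log scale, and the primed list had no gene left with promoter regions only. A median was taken as moved past 0.1 and a count past 1.5 times. The 18536 higher regions became 29115 at 1.5-fold, 6291 at 4-fold, 5008 above the median signal and 966 in the top quintile, and the 19579 lower ones 31951, 6125, 7835 and 3395. The top quintile was added after the data were seen. With equal sums over all regions the median over all regions was 0.22, over promoters 0.11 and over distal regions 0.23. With the promoter median set to 0 these were 0.11, 0.00 and 0.12, and a loess offset put the promoter median at 0.10. The naive list median was -0.89 with equal sums, -1.01 with the promoter median at 0, -1.07 with loess, -1.28 above the median signal, -1.04 within 20 kb and -2.005 at the region of highest signal. The formative list median was 0.85, 0.74, 0.30 for regions above 0 in all 4 columns, 0.47 within 20 kb, 0.32 for promoters only and 0.39 at the region of highest signal. The Aspg region median was -1.24 above the median signal, against 2.44, and the cause was not tested. Of the values for named regions, 227 stayed within these limits, 122 moved and 0 reversed. These regions were picked for their extreme differences, so 0 reversed says little. Settings that only filter regions leave a single region's difference unchanged and count among the 227. For genes named by region median 74 stayed, 56 moved and 1, Aspg, reversed. Of the values for the main counts and medians, the naive and formative lists and the RNA classes, 37 stayed and 27 moved.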
